A study of Mus musculus with 3 samples.

Results

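The genes described here encode the matrix metalloproteinases (MMPs), the ADAMTS proteases and the tissue inhibitors of metalloproteinases (TIMPs). They were taken as every gene symbol that begins with Mmp, Timp or Adamts followed by a digit. This gave 42 of the 18245 genes in the deposited table, namely 20 MMPs, 4 TIMPs and 18 ADAMTS genes. Messenger RNA was sequenced from 3 kinds of cultured cell, all labelled as ventricle epicardium of C57BL/6 mice. CDC are cardiosphere-derived cells, grown out of peeled epicardium of 6-week-old mice by way of floating spheres, spread on fibronectin as spindle-shaped cells. CDC-EpiC is a single epithelial clone, picked with a cylinder after 2 weeks in which 10 µM SB-431542, which blocks the kinase activity of TGF-beta type I receptors, was present in the medium of CDC. Its libraries hold no difference between clones. pEpiC are primary epicardial cells, freed by collagenase and trypsin from hearts of mice aged 6 to 8 weeks and plated on gelatin in another medium. Each kind has 3 libraries. In the labels each kind is 1 sample, and nothing ties its libraries to animals or cultures, so every p-value here measures the spread between these libraries, which may be technical. Substrate, medium, enzyme and inhibitor differ between the kinds and cannot be told apart from the kind of cell.

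MMPs are zinc-dependent endopeptidases that cut collagens, gelatin, elastin and other proteins of the extracellular matrix. Most are secreted as inactive proenzymes and some are anchored in the cell membrane. ADAMTS proteases carry thrombospondin-like repeats that hold them in the matrix, where they trim procollagens, cleave large proteoglycans such as versican or act on microfibrils. TIMPs bind the active site of MMPs, and Timp3 also blocks several ADAMTS and ADAM proteases. In the heart these families take part in the remodelling of the matrix during development and after injury.

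Total expected counts per library, the estimated reads of each gene before scaling, were 22008833 to 22756045. Levels are given as CPM, counts per 1000000 reads after TMM scaling, and as TPM, transcripts per 1000000, where genes are compared with each other. CDC library 3 stood above the others of its kind for 19 of the 25 best expressed members, with a median ratio of 1.17 to the mean of the other libraries. All 6 epicardial markers (Wt1, Tbx18, Tcf21, Upk3b, Msln and Aldh1a2) had counts in each kind and summed to 392.5 to 406.5 CPM in CDC, 2762.8 to 3210.8 in CDC-EpiC and 315.3 to 324.5 in pEpiC. Most of the sum in the clone was Upk3b, at 2663.7 CPM on average. In pEpiC against CDC, Wt1, Tcf21 and Aldh1a2 were higher and Tbx18, Upk3b and Msln were lower. In the clone against CDC, Wt1, Tcf21, Upk3b and Msln were higher, Tbx18 was lower and Aldh1a2 differed little (2.01 against 2.31 CPM). The 10 macrophage markers summed to 58.0 to 60.9 CPM in CDC, 22.6 to 25.1 in CDC-EpiC and 820.2, 322.5 and 295.9 in the libraries of pEpiC, where all 10 were higher than in CDC. Of these 10 markers, Fcgr1 had 0 counts in CDC and CDC-EpiC and Ptprc had 0 in CDC-EpiC. Ptprc averaged 0.0152 CPM in CDC, and Adgre1, C1qa, C1qb, C1qc and Tyrobp averaged at most 0.198 CPM in either kind. Only Cd68, Csf1r and Lyz2 stood above this, with Lyz2 at 1.0 CPM in the clone. Lyz2 and Csf1r made up most of the sum in CDC, with means of 37.7 and 19.6 CPM. In the clone most of it was Cd68 and Csf1r, with means of 13.3 and 9.41, where Cd68 averaged 1.96 in CDC. The 6 endothelial markers summed to at most 1.59 CPM in CDC and CDC-EpiC and to 18.4 to 21.3 in pEpiC, of which Tek held 17.5 on average while Cldn5 and Emcn were at 0.0871 and 0.217. The 5 cardiomyocyte markers summed to 22.9, 23 and 8.88 CPM in the CDC libraries, 8.94 to 12 in CDC-EpiC and 136.2 to 151.9 in pEpiC. In pEpiC Tnnt2 held 143.9 on average, with Myh6 and Myl2 at 0.0144 each, while in CDC Myh6 was at 8.8, 8.61 and 0, so that library 3 stood apart from the others here too. In a bulk library, fewer cells of a type and less RNA per cell cannot be told apart. Changes against pEpiC also followed transcript length: over 10686 genes above 5 CPM the log2 change of pEpiC against CDC rose by 0.44 per doubling of length, against 0.00625 for CDC-EpiC vs CDC. The members are long, with a median effective length of 3832 bases for the 34 that were tested against 2750.1 for all genes. Values with a length offset, a fit that removes this trend, are therefore given where they change a call or a fold by more than 1.5 times.

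Primary epicardial cells held far more MMP and ADAMTS transcripts than the explant-derived cells, while TIMP transcripts were most abundant in CDC. Summed MMP TPM was 762.3, 674.9 and 1002.6 in the CDC libraries, 585.7, 664.3 and 665.2 in CDC-EpiC, and 2762.6, 2718.6 and 2529 in pEpiC. Every pEpiC library lay above every library of the other kinds, and the CDC libraries lay above those of the clone, the lowest of them narrowly. The mean was 3.28 times higher in pEpiC than in CDC as TPM and 2.39 times as TMM-scaled counts per kilobase, the scale on which the typical gene stays level. Summed ADAMTS TPM was 253.9, 221.8 and 273 in CDC, 174.5, 188.3 and 193 in CDC-EpiC, and 880.4, 918.6 and 884.4 in pEpiC. The order of the kinds was that of the MMPs, again without overlap, and pEpiC exceeded CDC 3.58 times as TPM and 2.58 times as scaled counts per kilobase.

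Summed TIMP TPM was 3825.9, 3558.9 and 4219.9 in CDC, 1837.8, 2125 and 2081.8 in CDC-EpiC, and 2738.6, 2967.6 and 2885.1 in pEpiC. The CDC libraries were the highest, and on this scale the clone was the lowest, with no overlap. CDC exceeded the clone 1.92 times as TPM and 2.01 times as scaled counts per kilobase, and exceeded pEpiC 1.35 and 1.86 times. pEpiC exceeded the clone 1.42 times as TPM but 1.08 times as scaled counts per kilobase, where their libraries overlapped. The ratio of summed TIMP to summed MMP TPM was 4.83 ± 0.556 (SD, n = 3) in CDC, 3.16 ± 0.0377 in CDC-EpiC and 1.07 ± 0.0762 in pEpiC. This ratio fell from CDC to the clone to pEpiC without overlap of libraries, and was 4.84, 3.15 and 1.07 on scaled counts per kilobase. Leaving out Timp1, the shortest abundant member with an effective length of 867.5 bases, gave 3.15, 2.53 and 0.918. Leaving out Mmp2 gave 4.88, 3.16 and 1.55, and leaving out Mmp3 gave 6.94, 4.52 and 1.25. These genes to leave out were chosen after the values were seen. No p is given for these sums, because an exact two-sided permutation test of 3 libraries against 3 cannot go below 0.1.

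**Figure D1:**
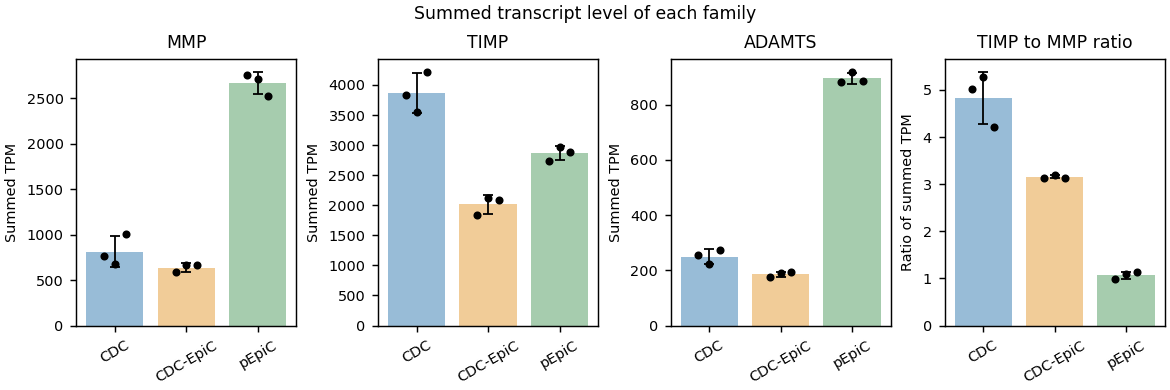
Summed TPM of the 20 MMPs, the 4 TIMPs and the 18 ADAMTS genes, and the ratio of summed TIMP to MMP TPM, for each kind of cell. Bars are means of 3 libraries, error bars the SD and points single libraries. pEpiC stands highest for MMPs and ADAMTS, CDC highest for TIMPs, and the ratio drops from 4.83 in CDC to 1.07 in pEpiC.

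Few genes made up most of each sum. Mmp14 held 44.5% of MMP TPM in CDC, 48.3% in the clone and 33.2% in pEpiC, and Mmp3 followed in CDC and the clone with 30.5% and 30.2%. In pEpiC the runner-up was Mmp2, with 30.7% against 0.912% in CDC and 0.206% in the clone. Timp2, Timp1 and Timp3 shared the TIMP sum of CDC about evenly, at 35.0%, 34.6% and 30.4%, whereas Timp2 alone held 57.0% in the clone and 59.2% in pEpiC. Adamts1 and Adamts2 led the ADAMTS sum of CDC with 28.5% and 27.8%. Adamts2 led in pEpiC with 34.1% and in the clone with 19.5%, and in the clone Adamts9 and Adamts7 came next at 17.7% and 15.6%.

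Of the 42 members, 34 passed the filter on low counts for pEpiC against CDC, 31 for CDC-EpiC against CDC and 33 for CDC-EpiC against pEpiC. Adamts16, Adamts17, Adamts19, Adamts20, Mmp1b, Mmp9, Mmp21 and Timp4 passed in none. In pEpiC against CDC, 30 of the 34 members had an adjusted p under 0.05, by the quasi-likelihood test of edgeR and Benjamini-Hochberg adjustment over all genes, where 78.3% of all 13526 genes did. Of the members, 21 were higher in pEpiC and 9 lower, where 39.8% of all genes were higher and 38.5% lower. At least 2-fold change was seen for 21 members, 16 higher and 5 lower, against 30.1% of all genes. The median log2 change was 0.89 over the members and 0.02 over all genes tested. With TPM in place of scaled counts the median of all genes moved to 0.41, so changes of pEpiC on that scale are read relative to it, and the members split into 25 higher and 6 lower. Of all calls 74.5% were then higher, against 50.8% on scaled counts.

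In CDC-EpiC against CDC, 26 of 31 members passed, against 68.8% of all 12976 genes. Of these, 8 were higher in the clone and 18 lower, where the shares of all genes were 34.2% and 34.6%. At least 2-fold change was seen for 19 members, 5 higher and 14 lower, against 21.7% of all genes, and the median log2 change was −0.46 over the members and 0.00 over all genes. In CDC-EpiC against pEpiC, 29 of 33 members passed, against 81.9% of all 13547 genes. Of these, 7 were higher in the clone and 22 lower, where the shares of all genes were 40.3% and 41.5%. At least 2-fold change was seen for 22 members, 4 higher and 18 lower, against 35.9% of all genes. The median log2 change was −1.14 over the members and −0.02 over all genes, which moved to −0.33 with TPM, where 5 members were higher and 24 lower. Of all calls 32.9% were then higher, against 49.3% on scaled counts. The 3 comparisons share libraries in pairs, so their counts are not independent of each other.

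**Figure D2:**
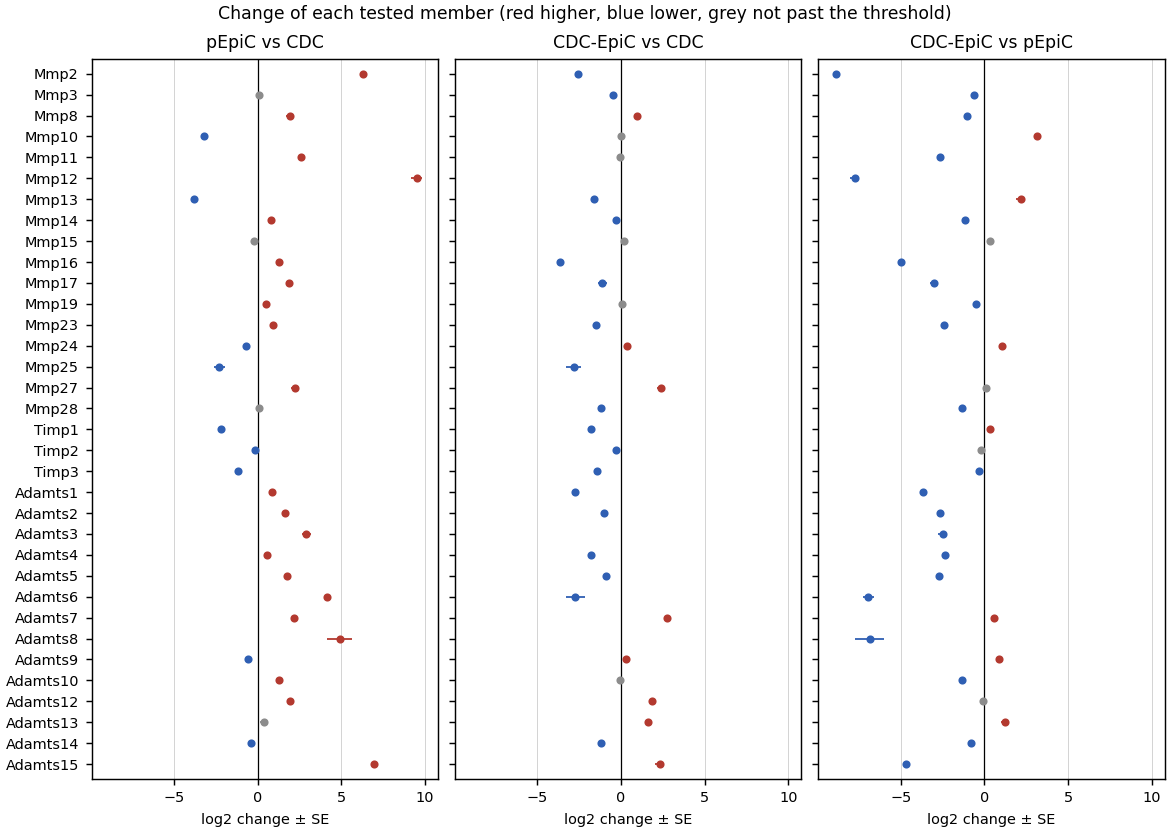
Log2 change (first kind minus second), with its standard error, of the members tested in each comparison, 34 in pEpiC against CDC, 31 in CDC-EpiC against CDC and 33 in CDC-EpiC against pEpiC. Red points are members past the threshold and higher, blue past it and lower, grey not past it. The changes reach 9.5 for Mmp12 in pEpiC against CDC and −8.9 for Mmp2 in CDC-EpiC against pEpiC, and the 3 tested TIMPs lie below 0 in both comparisons with CDC, although Timp2 in pEpiC is above 0 on the TPM scale.

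A row of 7 members lies within 309.4 kilobases of chromosome 9, from 7272514 to 7581885 on GRCm38.p6 (the mm10 build), in the order Mmp13, Mmp12, Mmp1b, Mmp3, Mmp10, Mmp8 and Mmp27. RefSeq promoters, 250 bases before to 50 bases after the start, were at hand for 28 of the 42 members. The letters TGANTCA, the site bound by AP-1 (Fos and Jun dimers), which are their own reverse complement, occur in 7.81% of all 32851 promoter windows. They occur in windows of 5 of the 7 clustered members (Mmp13, Mmp12, Mmp1b, Mmp3 and Mmp10) and of 0 of the 21 other members with a window. The first base of the match lies 35 bases before the start in Mmp13, 44 in Mmp12 at the downstream of its 2 listed starts, 93 in Mmp1b, 46 in Mmp3 and 63 in Mmp10. A match of letters is a description and not evidence of binding. The last 150 bases before the start are shown, from 5′ to 3′ on the strand of the gene and with each match in capitals, for the 4 clustered genes that have a match and reached 10 CPM, whose levels follow, and for Mmp27, a neighbour with no match:
Mmp13 (chr9:7272364-7272513, + strand): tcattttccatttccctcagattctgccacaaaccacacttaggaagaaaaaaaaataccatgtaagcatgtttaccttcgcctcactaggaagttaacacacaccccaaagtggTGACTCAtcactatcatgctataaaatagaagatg
Mmp12 (chr9:7347224-7347373, + strand): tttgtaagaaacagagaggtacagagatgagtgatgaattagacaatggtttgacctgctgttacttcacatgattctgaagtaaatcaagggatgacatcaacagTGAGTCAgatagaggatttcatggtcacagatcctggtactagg
Mmp3 (chr9:7445672-7445821, + strand): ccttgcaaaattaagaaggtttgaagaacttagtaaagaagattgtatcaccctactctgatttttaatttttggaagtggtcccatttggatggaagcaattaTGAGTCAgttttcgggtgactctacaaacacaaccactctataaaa
Mmp10 (chr9:7502192-7502341, + strand): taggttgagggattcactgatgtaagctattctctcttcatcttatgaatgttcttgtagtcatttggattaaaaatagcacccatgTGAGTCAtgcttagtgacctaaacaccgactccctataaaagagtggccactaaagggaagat
Mmp27 (chr9:7571246-7571395, + strand): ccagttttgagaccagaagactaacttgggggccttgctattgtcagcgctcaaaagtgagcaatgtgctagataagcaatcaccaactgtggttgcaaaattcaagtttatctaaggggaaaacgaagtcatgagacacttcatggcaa

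These neighbours did not move together. Mmp13 (collagenase 3), which cuts fibrillar collagen, was at 33.2, 36.5 and 47.3 CPM in the CDC libraries, 17.8, 9.02 and 12.2 in CDC-EpiC, and 2.5, 2.69 and 3.49 in pEpiC. All CDC libraries were above all of the clone, and these above all of pEpiC. The log2 change was −3.79 ± 0.16 (SE) in pEpiC against CDC (adjusted p = 1.9e-08) and −1.59 ± 0.18 in the clone against CDC (adjusted p = 1.5e-06). Mmp10 (stromelysin 2), which cuts proteoglycans and activates procollagenases, was at 13.5, 13.5 and 17.6 CPM in CDC, 16.5, 12.6 and 15.1 in CDC-EpiC, and 1.81, 1.56 and 1.48 in pEpiC. Only pEpiC stood apart, with a log2 change of −3.23 ± 0.15 against CDC (adjusted p = 3.7e-08). The clone and CDC overlapped, with a log2 change of −0.01 ± 0.12 (adjusted p = 0.921).

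Mmp3 (stromelysin 1), the best expressed gene of the row, was at 237.9, 184.9 and 345.3 CPM in CDC, 167.1, 203.9 and 191.7 in CDC-EpiC, and 333.8, 274.6 and 239.9 in pEpiC. CDC spread widely and overlapped both other kinds. The log2 change was 0.11 ± 0.19 in pEpiC against CDC (adjusted p = 0.613), and without CDC library 3 it was 0.37 (adjusted p = 0.0427). In the clone against CDC it was −0.46 ± 0.16 (adjusted p = 0.019), without CDC library 3 it was −0.18 (adjusted p = 0.137), and without CDC-EpiC library 1 it was −0.39 (adjusted p = 0.0871). The clone lay below pEpiC without overlap, by −0.61 ± 0.11 (adjusted p = 0.00068).

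Mmp12 (macrophage metalloelastase) went the other way from Mmp13 and Mmp10. It had 1, 0 and 1 counts in the CDC libraries, 3, 2 and 3 in CDC-EpiC, and 726, 492 and 627 in pEpiC. Nearly all of its reads were in pEpiC. After TMM scaling its summed counts there were 876.2 times those of CDC (95% counting interval 242.2 to 7240.6) and 223.3 times those of the clone (113.1 to 518). Mmp12 is best known from macrophages, and the macrophage markers were also higher in pEpiC. In pEpiC library 1 all 10 macrophage markers were 2.45 to 3.14 times the mean of libraries 2 and 3, while Mmp12 was 1.28 times that mean. The part of macrophages in the level of Mmp12 was not tested. Mmp8 (collagenase 2), a neutrophil enzyme in blood, had 28, 27 and 34 counts in CDC, 67, 56 and 56 in CDC-EpiC, and 166, 101 and 106 in pEpiC. The kinds rose in that order without overlap, by 1.95 ± 0.23 on the log2 scale in pEpiC against CDC (adjusted p = 2.5e-05) and 0.97 ± 0.2 in the clone against CDC (adjusted p = 0.00056). Of the 6 neutrophil markers in the table, S100a8, S100a9, Elane and Ltf had 0 counts in every pEpiC library, Mpo had 1, 2 and 0 and Camp had 5, 0 and 3, and Mmp8 in pEpiC library 1 was 1.59 times the mean of the other libraries of its kind. Mmp27, a secreted MMP of little known function, had 19, 38 and 31 counts in CDC, 193, 121 and 158 in CDC-EpiC, and 152, 140 and 153 in pEpiC. The clone and pEpiC overlapped, and both exceeded CDC, by 2.38 ± 0.23 (adjusted p = 2.5e-07) and 2.22 ± 0.21 (adjusted p = 4.8e-06). Mmp1b had at most 2 counts in any library, and its exons share 157 bases with the opposite strand of Mmp12.

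**Figure D3:**
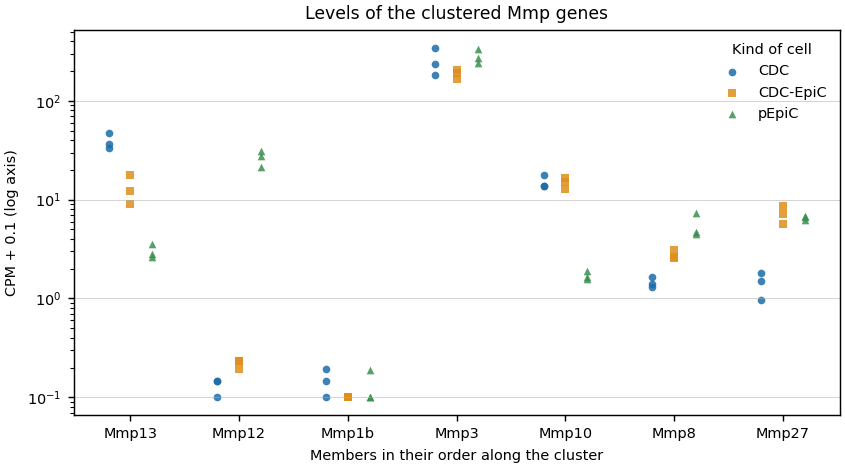
CPM plus 0.1 on a log axis of the 7 clustered Mmp genes, in their order along chromosome 9, with a point for each library. Mmp13 and Mmp10 are lowest in pEpiC, Mmp12 is near 0 outside pEpiC, Mmp27 is lowest in CDC, and the kinds lie close together for Mmp3.

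Of the gelatinases, Mmp2 had the largest fitted difference of all 33 members tested between the clone and pEpiC, and Mmp9 was nearly silent. Mmp2 (gelatinase A, chromosome 8 from 92827290 to 92853421) cleaves denatured and basement membrane collagen and is a classic product of mesenchymal cells. Its CPM was 13.5, 11.2 and 14 in CDC, 2.04, 2.37 and 2.18 in CDC-EpiC, and 1063.7, 1066.1 and 992.5 in pEpiC. The 3 kinds were widely apart, with each group of libraries tightly clustered. Against CDC the log2 change was 6.3 ± 0.1 in pEpiC (adjusted p = 5.9e-11) and −2.56 ± 0.14 in the clone (adjusted p = 4.4e-10). Between the clone and pEpiC it was −8.9 ± 0.09 (adjusted p = 1e-11), a 477.8-fold difference. The Mmp2 level in TPM was 819.5 ± 38.9 (SD, n = 3) in pEpiC, next to 886.8 ± 17.5 for Mmp14, and 7.34 ± 1.05 in CDC. Mmp9 (gelatinase B), typical of leukocytes, had 0, 2 and 2 counts in CDC, 0, 1 and 0 in the clone, and 6, 8 and 6 in pEpiC.

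Mmp11 (stromelysin 3, chromosome 10 from 75923221 to 75932502), a stromal enzyme that furin activates inside the cell, was at 37.8, 32.9 and 40.1 CPM in CDC, 35.6, 36.6 and 34.8 in CDC-EpiC, and 239.6, 233.2 and 207.9 in pEpiC. CDC and the clone overlapped (log2 change −0.06 ± 0.08, adjusted p = 0.538) and pEpiC was far above both. It exceeded CDC by 2.58 ± 0.09 on the log2 scale (adjusted p = 4e-09).

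The membrane-type MMPs act at the cell surface. Mmp14 (MT1-MMP, chromosome 14 from 54431598 to 54442456), the collagenase that with Timp2 activates the Mmp2 proenzyme, was at 748.3, 703.9 and 887.3 CPM in CDC, 565.9, 701.1 and 652.5 in CDC-EpiC, and 1411.3, 1399.8 and 1375.9 in pEpiC. It was the leading MMP in each kind and highest in pEpiC, by 0.8 ± 0.08 on the log2 scale against CDC (adjusted p = 8e-06). The clone was lower than CDC by a small margin, with a log2 change of −0.29 ± 0.1 (adjusted p = 0.0192), which lost the call without CDC library 3 (−0.19, adjusted p = 0.0789) and without CDC-EpiC library 1 (−0.22, adjusted p = 0.077). Mmp16 (MT3-MMP), which also activates the Mmp2 proenzyme, was at 11.8, 9.88 and 11.3 CPM in CDC, 1.02, 0.683 and 0.889 in CDC-EpiC, and 26.5, 28.2 and 26.2 in pEpiC. It was lowest in the clone, by −3.67 ± 0.18 against CDC (adjusted p = 7.3e-11), and highest in pEpiC, by 1.26 ± 0.08 against CDC (adjusted p = 3.4e-07). Mmp17 (MT4-MMP), held by a lipid anchor, followed the same order at lower levels, with log2 changes of −1.12 ± 0.28 in the clone and 1.87 ± 0.18 in pEpiC. Mmp24 (MT5-MMP) had the opposite order, at 26.5, 26.4 and 24.8 CPM in CDC, 30.3, 36 and 35.3 in CDC-EpiC, and 17.1, 16.2 and 15.3 in pEpiC. The clone exceeded CDC by 0.38 ± 0.09 (adjusted p = 0.0011) and pEpiC lay below it by −0.72 ± 0.08 (adjusted p = 1e-05), which on log2(TPM + 0.1) was −0.21 (adjusted p = 0.0517). Mmp15, at 2.49 to 4.15 CPM, passed in no comparison on scaled counts. With the length offset it was lower in pEpiC than in CDC by −0.48 (adjusted p = 0.0309) and higher in the clone than in pEpiC by 0.60 (adjusted p = 0.0117). Mmp25, a leukocyte MMP, was low throughout, with 23, 19 and 23 counts in CDC against 5, 1 and 3 in the clone and 5, 5 and 4 in pEpiC.

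Mmp23, an MMP that is cut free of the membrane as it leaves the cell, was at 61.5, 60.9 and 65.8 CPM in CDC, 22.5, 23.1 and 21.5 in CDC-EpiC, and 121.7, 119.6 and 120.4 in pEpiC. The 3 kinds did not overlap, with log2 changes against CDC of 0.91 ± 0.05 in pEpiC (adjusted p = 1.8e-07) and −1.49 ± 0.08 in the clone (adjusted p = 1.3e-10). Mmp19, a basement membrane protease, was at 46.4, 42.4 and 51.1 CPM in CDC, 47.3, 49.2 and 49.7 in CDC-EpiC, and 69.7, 65.4 and 68 in pEpiC. Only pEpiC lay apart, by 0.5 ± 0.07 against CDC (adjusted p = 7.8e-05). Mmp28 (epilysin), an epithelial MMP, was at 5.3, 4.53 and 5.64 CPM in CDC, 2.13, 2.23 and 2.31 in the clone, and 5.38, 5.46 and 6.24 in pEpiC. The clone was the lowest kind, by −1.22 ± 0.16 against CDC (adjusted p = 8.4e-06). Of the exonic bases of Mmp19, Mmp24 and Mmp28, 22.3%, 13.6% and 12% are shared with a gene on the opposite strand in GENCODE M21, and it is not known whether reads were assigned by strand.

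**Figure D4:**
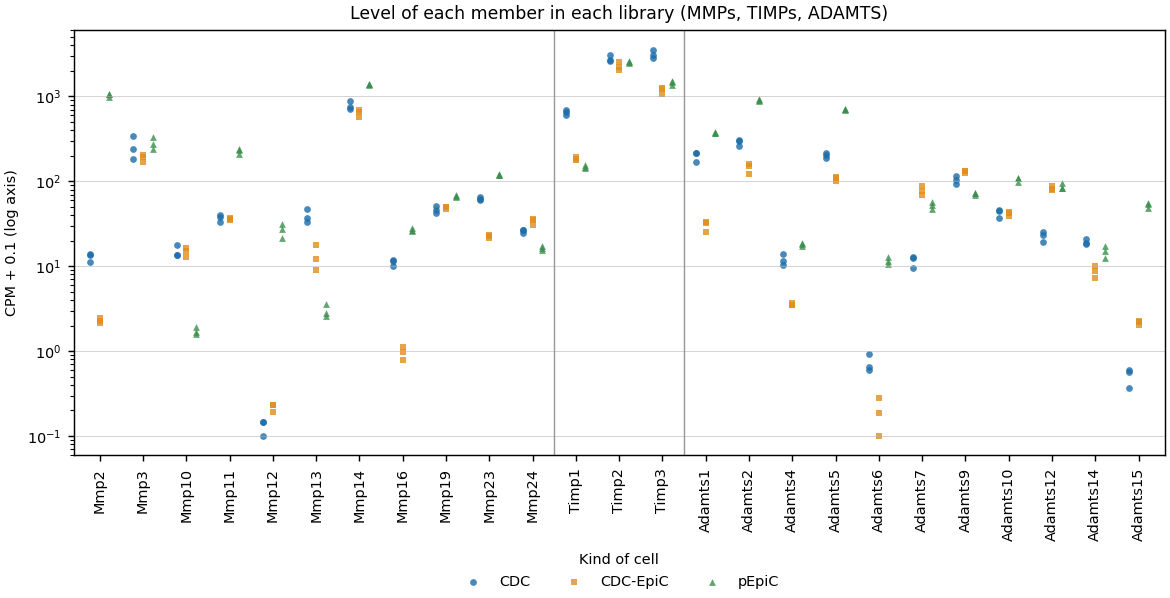
CPM plus 0.1 on a log axis of the 25 members with a mean of at least 10 CPM in a kind, with a point for each library, grouped as MMPs, TIMPs and ADAMTS genes. Mmp2, Mmp12, Adamts6 and Adamts15 show the widest gaps between kinds, and the libraries of a kind lie close together for most members.

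All 3 abundant inhibitors were highest in CDC by mean CPM, although on the TPM scale Timp2 was highest in pEpiC. Timp1 (chromosome X from 20870166 to 20874737), an inducible inhibitor that binds the Mmp9 proenzyme, was at 700.7, 658 and 603.2 CPM in CDC, 180.7, 195.5 and 184.3 in CDC-EpiC, and 148.9, 142.2 and 154.4 in pEpiC. CDC exceeded both other kinds without overlap, with log2 changes of −1.82 ± 0.09 in the clone (adjusted p = 6.1e-11) and −2.18 ± 0.08 in pEpiC (adjusted p = 5.7e-09). With the length offset the change in pEpiC was −1.28 (adjusted p = 4e-08). The clone exceeded pEpiC by 0.32 ± 0.05 (adjusted p = 0.00025), but lay below it by −0.49 with the length offset (adjusted p = 1.5e-05) and at −0.07 as TPM (adjusted p = 0.236), so the order of these kinds depends on the scale.

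Timp3 (chromosome 10 from 86300412 to 86349505), the inhibitor that binds to the matrix, was at 3069, 2836.4 and 3571.2 CPM in CDC, 1081.7, 1221.9 and 1268.8 in CDC-EpiC, and 1367.6, 1495.9 and 1505.1 in pEpiC. Again CDC was the highest without overlap. The log2 change was −1.42 ± 0.1 in the clone (adjusted p = 9.6e-09) and −1.15 ± 0.09 in pEpiC (adjusted p = 8e-07). The clone lay below pEpiC by −0.3 ± 0.07 (adjusted p = 0.0025), which became −0.02 with the length offset (adjusted p = 0.799). In GENCODE M21, 21.3% of the exonic bases of Timp3 are shared with the opposite strand of Syn3, whose mean was at most 2.15 CPM in any kind.

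Timp2 (chromosome 11 from 118301061 to 118355411), the constitutive inhibitor that takes part in Mmp2 activation, was at 2716, 2595.6 and 3102.6 CPM in CDC, 2032.8, 2528.4 and 2243.7 in CDC-EpiC, and 2470.3, 2619 and 2535 in pEpiC. Its kinds lay closest together of the 3 inhibitors. The clone was lower than CDC by −0.31 ± 0.1 (adjusted p = 0.0127), and by −0.24 as TPM (adjusted p = 0.0607). In pEpiC the log2 change against CDC was −0.18 ± 0.07 (adjusted p = 0.046), with overlapping libraries, and as TPM it was 0.33 in the other direction (adjusted p = 0.00979), below the 0.41 by which all genes moved. Without CDC library 1 or 3, or any pEpiC library, the adjusted p was 0.0574 to 0.135. It was 0.0553 with RLE scaling, 0.429 with library size alone and 0.184 with all 9 libraries in one fit. With no filter it was 0.0737, and 0.103 with the stricter filter. Of the 19 fits of this result, the main one included, 15 lost the call or changed direction. The call held with DESeq2, without CDC library 2 and with the length offset (−0.3, adjusted p = 0.00079). In the clone against pEpiC the log2 change was −0.18 ± 0.08 (adjusted p = 0.0574), and without CDC-EpiC library 2 it was −0.26 (adjusted p = 0.0065). Timp4 had at most 8 counts in any library.

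The ADAMTS proteoglycanases open the account of that family. They cleave aggrecan and versican, and 5 of the 6 tested were higher in pEpiC than in CDC, against 39.8% of all genes. Adamts1 and Adamts5 are neighbours 55 kilobases apart on chromosome 16. Adamts1 was at 213, 171 and 213 CPM in CDC, 25.3, 31.8 and 33.4 in CDC-EpiC, and 373.2, 375.2 and 378.7 in pEpiC. The kinds were clearly apart, with log2 changes against CDC of −2.73 ± 0.11 in the clone (adjusted p = 1.4e-11) and 0.88 ± 0.08 in pEpiC (adjusted p = 4.4e-06). Adamts5, the main cartilage aggrecanase of the mouse, was at 206.8, 189.5 and 213.9 CPM in CDC, 110.3, 101.6 and 113.4 in CDC-EpiC, and 690.5, 710.8 and 719.1 in pEpiC. The order was that of Adamts1, with log2 changes of −0.92 ± 0.08 (adjusted p = 6.4e-08) and 1.76 ± 0.06 (adjusted p = 6.8e-09). Adamts4, the other classic aggrecanase, was at 11.4, 10.3 and 14 CPM in CDC, 3.41, 3.42 and 3.6 in CDC-EpiC, and 17.1, 18.6 and 18.1 in pEpiC. It too was lowest in the clone (−1.78 ± 0.14, adjusted p = 2.5e-08) and highest in pEpiC (0.56 ± 0.11, adjusted p = 0.00077).

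Adamts15 and Adamts8 are another neighbouring pair, 20.1 kilobases apart on chromosome 9. Adamts15, a versican-cleaving enzyme, had 10, 6 and 11 counts in CDC, 47, 42 and 49 in CDC-EpiC, and 1244, 1266 and 1114 in pEpiC. It was nearly absent from CDC, low in the clone and well expressed in pEpiC, with log2 changes against CDC of 6.94 ± 0.14 in pEpiC (adjusted p = 2e-10) and 2.3 ± 0.27 in the clone (adjusted p = 2.5e-06). Adamts8 had 0, 0 and 1 counts in CDC, 0 in every library of the clone, and 12, 19 and 13 in pEpiC. After TMM scaling that is at least 4.73-fold higher against the clone, taking 3 counts per library as the floor. Against CDC the ratio of summed counts, scaled in the same way, was 41.8 (95% counting interval 7.12 to 1687.8). Adamts9, which cleaves versican and is needed in heart development, had another order, at 103, 92 and 114.3 CPM in CDC, 124, 133.6 and 131.9 in CDC-EpiC, and 68.4, 72 and 72.4 in pEpiC. The clone was the highest kind, by 0.32 ± 0.08 against CDC (adjusted p = 0.003), and pEpiC the lowest, by −0.57 ± 0.07 (adjusted p = 4.8e-05). As TPM the change in pEpiC was −0.06 (adjusted p = 0.546), and with the length offset it was −1.09 (adjusted p = 3.7e-08). An opposite-strand gene shares 10.6% of the exonic bases of Adamts8. For Adamts9, an opposite-strand gene shares 9.18% and another shares 2.82%.

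The procollagen N-propeptidases remove the amino-terminal propeptide of fibrillar procollagens. Adamts2, the chief enzyme for type I procollagen, was at 295, 263.2 and 307.9 CPM in CDC, 123, 158.7 and 150.1 in CDC-EpiC, and 920.9, 924.9 and 892.5 in pEpiC. No libraries overlapped, and the log2 changes against CDC were 1.63 ± 0.07 in pEpiC (adjusted p = 1.9e-08) and −1.01 ± 0.1 in the clone (adjusted p = 2.2e-07). Adamts14 was at 20.6, 18.9 and 18.4 CPM in CDC, 7.23, 8.61 and 9.91 in CDC-EpiC, and 12.5, 15.2 and 17.4 in pEpiC. Here CDC was the highest kind and the clone the lowest, with log2 changes of −1.18 ± 0.11 in the clone (adjusted p = 2.5e-07) and −0.4 ± 0.11 in pEpiC (adjusted p = 0.0092). The latter turned to 0.09 as TPM (adjusted p = 0.516). Adamts3, which also activates the lymphatic growth factor Vegfc, was low, with 8, 6 and 7 counts in CDC, 11, 7 and 12 in the clone, and 65, 64 and 45 in pEpiC.

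A different order was seen for the enzymes that cleave cartilage oligomeric matrix protein (COMP), which were higher in CDC-EpiC and pEpiC than in CDC. Adamts7 was at 12.3, 9.34 and 12.9 CPM in CDC, 68.2, 88.1 and 77.9 in CDC-EpiC, and 56.3, 52.7 and 47.8 in pEpiC. CDC was far below the others, with log2 changes of 2.75 ± 0.12 in the clone (adjusted p = 2.2e-11) and 2.15 ± 0.11 in pEpiC (adjusted p = 6.5e-08). Adamts12 was at 23, 19.2 and 25 CPM in CDC, 87.5, 81.6 and 79.4 in CDC-EpiC, and 83.7, 82.4 and 94.6 in pEpiC. The clone and pEpiC overlapped (−0.08 ± 0.07, adjusted p = 0.259) and exceeded CDC by 1.88 ± 0.09 (adjusted p = 1.1e-10) and 1.92 ± 0.09 (adjusted p = 4.3e-08). With the length offset Adamts12 was higher in the clone than in pEpiC by 0.34 (adjusted p = 0.00069), and as TPM lower by −0.45 (adjusted p = 0.000227), so its direction depends on the scale.

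Adamts6 and Adamts10 act on fibrillin microfibrils. Adamts6 had 12, 11 and 18 counts in CDC, 2, 4 and 0 in CDC-EpiC, and 268, 239 and 296 in pEpiC. It was near the detection limit in the clone and clearly expressed in pEpiC only, with log2 changes against CDC of 4.17 ± 0.19 in pEpiC (adjusted p = 2.6e-08) and −2.73 ± 0.59 in the clone (adjusted p = 0.00073). Adamts10 was at 44.9, 45.8 and 37.1 CPM in CDC, 43.3, 42.6 and 39 in CDC-EpiC, and 109.2, 110.9 and 98.4 in pEpiC. The clone and CDC overlapped (−0.04 ± 0.09, adjusted p = 0.692) and pEpiC was higher by 1.28 ± 0.09 (adjusted p = 5.8e-07). Adamts13, the liver enzyme that trims von Willebrand factor, had 26, 25 and 25 counts in CDC, 87, 75 and 81 in CDC-EpiC, and 30, 34 and 43 in pEpiC. It was highest in the clone, by 1.64 ± 0.19 against CDC (adjusted p = 1.9e-06). The members that passed no filter had at most 11 counts in any library. Adamts16 had 9, 10 and 7 counts in the clone against at most 3 elsewhere, Adamts20 had 8, 11 and 6 in pEpiC against at most 2 elsewhere, and Adamts17, Adamts19 and Mmp21 had at most 9, 2 and 1.

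Of 14 genes that activate MMPs or clear them from the cell surface, 6 were higher and 4 lower in pEpiC than in CDC, and 2 were higher and 8 lower in the clone than in CDC, of 12 tested each time, with medians of 0.26 and −1.19 on the log2 scale. Of all genes 78.3% passed in the former comparison and 68.8% in the latter, with 39.8% higher and 38.5% lower, and 34.2% higher and 34.6% lower, and the lists that follow are read against the same shares. Serpine2, an inhibitor of serine proteases, averaged 25.7 CPM in CDC, 7.01 in CDC-EpiC and 183.6 in pEpiC, with log2 changes against CDC of −1.88 ± 0.1 in the clone and 2.8 ± 0.07 in pEpiC. Reck, a membrane-anchored MMP inhibitor, averaged 15.1, 4.48 and 60.7 CPM, with changes of −1.76 ± 0.13 and 1.98 ± 0.1. Both genes thus passed the threshold in both comparisons, and each was lowest in the clone and highest in pEpiC.

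Of the 7 ADAMTS-like genes, whose proteins share the ADAMTS ancillary domains but have no protease, 5 of 7 tested were higher and 2 lower in pEpiC than in CDC, and 2 of 5 were higher and 3 lower in the clone (medians 2.31 and −0.94), where 78.3% and 68.8% of all genes passed. Adamtsl2 averaged 0.198 CPM in CDC, 0.164 in CDC-EpiC and 99.5 in pEpiC, a log2 change of 8.9 ± 0.15 in pEpiC (adjusted p = 9.1e-11). Thsd4 (Adamtsl6), which binds fibrillin, averaged 0.883, 218.3 and 8.29 CPM and was highest in the clone, by 7.93 ± 0.14 against CDC (adjusted p = 5.1e-15). Adamtsl3 averaged 124.2, 11 and 65.1 CPM and was lowest in the clone, by −3.51 ± 0.13 (adjusted p = 2.6e-12). Each of these genes was highest in a different kind of cell. Of the 11 genes of the membrane-bound ADAM family, 8 were higher and 1 lower in pEpiC than in CDC, and 5 were higher and 5 lower in the clone (medians 1 and −0.24). These 9 and 10 of 11 compare with 78.3% and 68.8% of all genes. Adam23, Adam19 and Adam12 averaged 97.2, 253 and 87.6 CPM in pEpiC, against 12.2, 122.9 and 42.7 in CDC and 25.7, 39.7 and 26.8 in the clone.

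Of the astacin proteases and procollagen C-proteinase enhancers, 3 of 4 tested were higher in pEpiC than in CDC and 3 of 4 lower in the clone (medians 0.88 and −1.69), against 39.8% and 34.6% of all genes. Bmp1, which removes the carboxy-terminal propeptide of procollagens, averaged 215.1 CPM in CDC, 185.2 in CDC-EpiC and 408.2 in pEpiC. Its enhancer Pcolce averaged 409.9, 592.9 and 768.5 CPM, and Pcolce2 averaged 68.8, 6.54 and 25.2. Pcolce was thus lowest and Pcolce2 highest in CDC. Of 11 substrates of the members, 5 of 8 tested were higher and 3 lower in pEpiC than in CDC, with a median of 1.16. In the clone 6 of 7 tested were lower than in CDC and 0 higher, with a median of −1.65, and against pEpiC all 8 tested were lower, where the shares of all genes that were lower are 34.6% and 41.5%. Col3a1, a fibrillar collagen, averaged 1278.7 CPM in CDC, 206.3 in CDC-EpiC and 8966 in pEpiC, with log2 changes against CDC of −2.64 ± 0.15 in the clone and 2.78 ± 0.14 in pEpiC. Fbn1, the main fibrillin, averaged 591, 189.4 and 2009.1 CPM, with changes of −1.65 ± 0.12 and 1.73 ± 0.12. Vcan, the versican that several ADAMTS proteases cleave, averaged 109.5, 9.14 and 32.2 CPM, with changes of −3.59 ± 0.12 and −1.8 ± 0.12. Col3a1 and Fbn1 thus had the order of Adamts2 and Adamts5, with pEpiC on top and the clone at the bottom, while Vcan was highest in CDC.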

How the data were processed

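Poly(A)-selected RNA of 9 libraries, 3 per kind of cell, was sequenced by the authors from both ends over 100 bases (BGISEQ-500) and is held in 1 table of 18245 genes. Per library the authors deposited expected counts (30.3% not whole), FPKM and TPM. The 9 columns of the authors' means were not used. Submitters' processing notes name HISAT2 2.0.4, Bowtie2 2.2.5, RSEM 1.2.12, DESeq2 1.4.5 and mm10, with no role or order. The annotation and the use of strand are not given in the sources used here, so overlapping and antisense genes cannot be told apart. The study's methods give a different number of biological replicates from the columns deposited.

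Expected counts were rounded and fitted in edgeR 4.0.16 (R 4.3.3) for each pair of kinds on its 6 libraries, over all genes after filterByExpr (minimum count 10, minimum total 15) with TMM scaling, glmQLFit, glmQLFTest and Benjamini-Hochberg adjustment, at a threshold of 0.05. SE is that of the fitted log2 change. Libraries of a kind differed by more than read sampling (chi-square per degree of freedom 4.89 to 23). The fit was tested on simulated counts. Counting intervals are exact (95%) and cover counting error only, since PCR copies are not independent molecules. The alternatives were DESeq2 1.42.0, a fit of all 9 libraries together, RLE scaling, scaling by library size alone, a stricter filter (10 counts in each library) and none, limma 3.58.1 on log2(FPKM + 1), log2(TPM + 1) and log2(TPM + 0.1), a length offset from the lengths that counts and FPKM imply, a test against 1.5-fold, the replicate block, and each library left out.

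Members with a mean of at least 10 CPM in a kind are given in every library, members called at lower levels with counts or CPM, and the others by range. From each list of other genes, up to 3 with the largest change among those at 50 CPM or more were named. A further gene that this rule names is not reported here. Members and lists were chosen with earlier results of these data known. Positions and promoters are from RefSeq (GRCm38.p6), exon overlaps from GENCODE M21. Python 3.11.15, pandas 2.3.3, NumPy 2.4.6, SciPy 1.17.1 and matplotlib 3.10.9 made the tables and plots.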

Additional observations from a re-analysis of the deposited data

How the results depend on the processing

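The counts of members past the threshold kept their direction and stayed within 1.5 times their value in all but 1 case: with log2(TPM + 0.1) the members lower in pEpiC than in CDC were 5 in place of 9. Leaving out a library moved the members higher from 21 to at most 22 and lower from 9 to at least 8 in pEpiC against CDC, lower from 18 to at least 16 in the clone against CDC, and lower from 22 to at most 23 in the clone against pEpiC. Of 98 single-gene results, 69 kept direction and side of the threshold in each alternative run. The reversed values, on the log2 scale, lay between −0.492 and 0.339. Some passed the threshold in the reversed direction. These were Timp2 in pEpiC against CDC as TPM, and Adamts12 and Timp1 in the clone against pEpiC with the length offset. With log2(TPM + 1) and log2(TPM + 0.1), in pEpiC against CDC Adamts14 was 0.085 and 0.095, Mmp15 0.150 and 0.247 and Timp2 0.328 and 0.328. In the clone against CDC Adamts10 was 0.084 and 0.088 and Mmp10 0.061 and 0.065. In the clone against pEpiC Mmp15 was −0.015 and −0.028, Mmp27 −0.287 and −0.323 and Timp1 −0.065 and −0.065. In the clone against CDC, log2(FPKM + 1) gave 0.062 for Adamts10 and 0.041 for Mmp10, and library size alone gave 0.017 and 0.046. On FPKM or TPM, calls were lost for Adamts9, Adamts14, Mmp24 and Timp2 in pEpiC against CDC, for Adamts6, Mmp3, Mmp14 and Timp2 in the clone against CDC, and for Adamts7 in the clone against pEpiC. On TPM they were gained for Adamts13, Mmp3 and Mmp28 in pEpiC against CDC and for Adamts12 and Timp2 in the clone against pEpiC. The test against 1.5-fold lost 15 calls. In pEpiC against CDC these were Adamts4, Adamts9, Adamts14, Mmp19 and Timp2. In the clone they were Adamts9, Mmp3, Mmp14, Mmp24 and Timp2 against CDC, and Adamts7, Mmp3, Mmp19, Timp1 and Timp3 against pEpiC. DESeq2 lost Mmp3 in the clone against CDC (adjusted p = 0.131) and gained Timp2 in the clone against pEpiC (adjusted p = 0.0103). The length offset turned Adamts12 (0.339), Mmp27 (−0.203) and Timp1 (−0.492) in the clone against pEpiC, ended the call of Timp3 there, and gave calls for Mmp15 in pEpiC against CDC (−0.476) and in the clone against pEpiC (0.601). Leaving out a library gave −0.079 to 0.372 for Mmp3 in pEpiC against CDC and −0.049 to 0.268 for Mmp27 in the clone against pEpiC. In the clone against CDC it gave −0.134 to 0.013 for Adamts10, −0.114 to 0.122 for Mmp10, −0.025 to 0.236 for Mmp15 and −0.010 to 0.123 for Mmp19. Except for the TPM scale, which moved the median of all genes, and the length offset, the cause was not tested.

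The labels give no pairing of library numbers between kinds. Deviations of same-numbered libraries had a correlation of −0.101 to 0.163. Differently numbered libraries were not correlated for reference, so these values cannot decide whether numbers pair the kinds. With the replicate block 21 members were higher and 8 lower in pEpiC against CDC, 8 and 18 in the clone against CDC, and 7 and 23 in the clone against pEpiC. Timp2 lost its call in pEpiC against CDC with the block (adjusted p = 0.0854) and gained one in the clone against pEpiC (adjusted p = 0.0305). Limits are the 3 libraries per kind, the single clone, the culture conditions that differ with the kind, and counts of 3 or fewer, under which Mmp21, Adamts19 and Mmp1b could not be compared.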
